A study of Mus musculus with 6 samples.

Results

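Annexins are a family of cytosolic proteins, and the genes described here are Anxa1, Anxa2, Anxa3, Anxa4, Anxa5, Anxa6, Anxa7 and Anxa11 together with S100a10 and S100a11, which encode small S100 proteins that bind annexins. They were chosen because annexin genes had moved strongly in opposite directions between mouse T cells cultured without and with glutamine in these arrays. Of the 10 genes, 8 had an array row naming that gene alone, out of 30701 genes measured in all. Each of the 8 had a single row. The other 2, Anxa11 and S100a11, have no value here, because every row that lists them also lists a pseudogene copy (Gm2260 or Gm2274 for Anxa11, Gm12854 and S100a11-ps for S100a11).

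Annexins bind membranes that carry acidic phospholipids such as phosphatidylserine when calcium rises, and they act in membrane trafficking, membrane repair and the organisation of the cortex beneath the plasma membrane. S100A10 binds the N-terminus of annexin A2 and forms with it a complex that bridges membranes and binds plasminogen, and S100A11 binds annexin A1. In T cells, annexin A1 is known as a ligand of formyl peptide receptors that modulates activation, and annexin A5 is best known as a probe for phosphatidylserine on dying cells.

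The RNA came from 6 cultures of mouse CD4 T cells, sorted as naive cells by flow cytometry and stimulated through CD3 and CD28 for 3 days under conditions that drive the TH17 fate, the helper lineage that makes IL-17. The medium of all 6 held 10% fetal bovine serum, 20 ng/ml of IL-6, 20 ng/ml of IL-23, 1.25 ng/ml of TGF-beta, and neutralizing antibodies to IL-4, IL-12 and IFN-gamma (10 ug/ml). Glutamine was present in 3 cultures and left out of the other 3. The labels call them biological replicates and give neither strain nor age of the mice, nor whether each culture came from its own animal, so any p-value measures only the spread between these arrays. Serum can itself supply some amino acids, and the labels do not say whether it was dialysed.

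Values are log2 levels on the scale of the deposited table, given as mean ± SD over n = 3 arrays, and differences, with their standard errors, run from the cultures with glutamine to those without (negative where the level was lower without it). Differences are not turned into folds, because 695 to 887 rows per array read above 16 log2, more than a scanner's range should allow, and the reason is not known. The median level over all rows lay between 4.18 and 4.21 with glutamine and between 4.33 and 4.38 without it, and the median difference over all genes was 0.060. The cells carried the markers of CD4 T cells: all 7 measured T cell markers stood above the median gene, with Cd3e at 16.89 ± 0.075 with and 16.90 ± 0.065 without glutamine and Cd4 at 16.58 ± 0.069 and 16.44 ± 0.11. Of the 7, 2 rose, Cd3d from 11.97 ± 0.33 to 12.85 ± 0.21 (limma adjusted p = 0.0174) and Cd5 from 16.83 ± 0.15 to 17.34 ± 0.076 (limma adjusted p = 0.0118). The Cd3d call was lost without replicate 2 with glutamine or replicate 1 or 2 without it (limma adjusted p 0.0559 to 0.0632). Cd3e, Cd4 and Cd5 read above 16 log2 on all 6 arrays, in the range whose reason is not known. After quantile normalization Cd5 did not pass, and Cd3e (-0.42) and Cd4 (-0.52) passed as lower (limma adjusted p = 0.0328 and 0.00637). None of the 4 B cell markers and 1 of the 8 myeloid markers stood above the median gene. So did 1 of the 2 CD8 T cell markers, Cd8b1, at 8.10 ± 0.25 with glutamine. Of the 8 stromal, epithelial and endothelial markers, 2 stood above it. These were Pecam1, at 7.87 ± 0.28 with glutamine, and Epcam, at 5.17 ± 0.064. Because these are bulk samples, fewer cells of a type and less RNA per cell cannot be told apart.

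Without glutamine, 7 of the 8 measured genes were lower and 1, Anxa3, was higher. The groups did not overlap for any of the 8, but neither did they for 43.8% of all genes, 25.0% higher and 18.8% lower. The members were picked on this contrast, so the count is a description. The median difference of the 8 genes was -0.77 log2. Of the 8, 4 genes differed by at least 1 log2 (Anxa2, Anxa4, S100a10 and Anxa3), and the other 4 differed by less. The shares of all genes that were lower, or that differed by at least 1 log2, were not counted. Of the 30701 genes, 782 had a difference at least as negative as that of S100a10, itself included. No test is given for any of these differences, because the values that chose the genes cannot also test them.

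**Figure D1:**
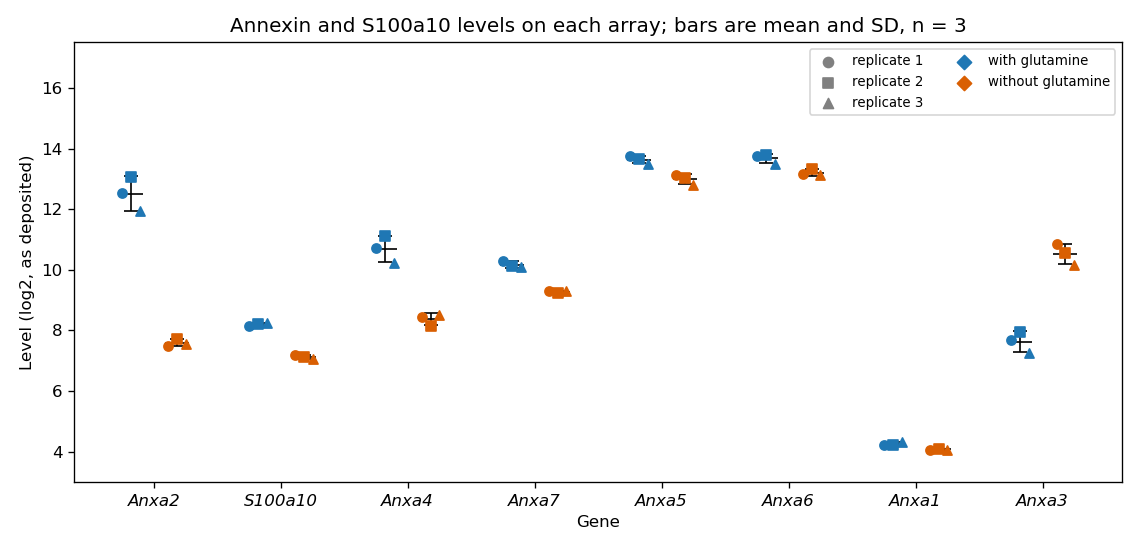
Level of each of the 8 measured genes on each array (vertical axis, log2 as deposited; symbols are replicates, colours are the cultures with and without glutamine, black bars are mean and SD, n = 3). The 3 arrays without glutamine lie below the 3 with glutamine for every gene except Anxa3, where they lie above, and the gap between the groups is widest for Anxa2, at 4.20 log2.

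Anxa2, which encodes the annexin that bundles actin at membranes and docks S100A10, had the largest difference. With glutamine its level was 12.55, 13.06 and 11.93 in replicates 1, 2 and 3, and without glutamine it was 7.50, 7.73 and 7.56. All 3 arrays without glutamine stood close together, while those with glutamine spread over more than 1 log2. The means were 12.51 ± 0.57 and 7.60 ± 0.12, a difference of -4.92 (SE 0.33). Of the 30701 genes, 8 had a difference at least as negative, Anxa2 included.

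S100a10, whose product is the partner bound in the annexin A2 complex, was lower too, but by much less. Its level was 8.14, 8.21 and 8.25 with glutamine and 7.19, 7.13 and 7.06 without it. The replicates of each group stood close together and the groups did not overlap. The difference was -1.07 (SE 0.050), from 8.20 ± 0.055 to 7.13 ± 0.066.

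Anxa3 was the exception. This gene encodes an annexin abundant in neutrophils and macrophages. Its level was 7.68, 7.96 and 7.26 with glutamine and 10.85, 10.55 and 10.17 without it. The lowest array without glutamine stood 2.21 log2 above the highest with it. The difference was 2.89 (SE 0.28), from 7.63 ± 0.35 to 10.52 ± 0.34, and 3 genes, Anxa3 included, had a difference at least as positive. Beside this difference, the sum of the log2 levels of the 8 myeloid markers was 30.7 to 31.1 over the arrays with glutamine and 29.2 to 29.6 without it. Lyz2, which encodes lysozyme, carried that difference. Without it the sum was 24.8 to 25.5 with and 25.1 to 25.4 without glutamine. Lyz2 was set aside as the marker that passed, so by that choice the other 7 are those that did not. These 7 (Itgam, Csf1r, Adgre1, Cd14, Csf3r, Mpo and Elane) all stood below the median gene. They lay between 2.97 (Elane) and 3.91 (Itgam) with glutamine and between 3.06 (Elane) and 3.93 (Itgam) without it. Lyz2 itself fell from 5.80 ± 0.33 to 4.14 ± 0.14 (limma adjusted p = 0.00137). Whether myeloid cells had a part in the Anxa3 difference was not tested.

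Anxa4, known for binding the membranes of secretory and epithelial cells, came second among the lower genes. Its level was 10.72, 11.10 and 10.23 with glutamine and 8.44, 8.16 and 8.52 without it. Again the arrays with glutamine were the more scattered and the groups lay apart. The difference was -2.31 (SE 0.28), from 10.68 ± 0.44 to 8.38 ± 0.19.

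Promoter sequence is shown for Anxa2 and Anxa4, the annexins with the most negative differences. The windows are the 250 bases before an annotated start in RefSeq (GRCm38.p6), written 5′ to 3′ on the strand of the gene. They come from a table that also lists Anxa1, Anxa5, Anxa7, Anxa11 and S100a11; Anxa3, Anxa6 and S100a10 are not in it. Capitals mark matches on either strand to an AP-1 element (TGANTCA), the core of a hypoxia response element (ACGTG or GCGTG) or a TATA box (TATAAA). A search for the STAT element TTCNNNGAA found no match in any of the 9 windows of these genes. Anxa4 has windows at 2 starts.
Anxa2, chr9:69453433-69453682, + strand: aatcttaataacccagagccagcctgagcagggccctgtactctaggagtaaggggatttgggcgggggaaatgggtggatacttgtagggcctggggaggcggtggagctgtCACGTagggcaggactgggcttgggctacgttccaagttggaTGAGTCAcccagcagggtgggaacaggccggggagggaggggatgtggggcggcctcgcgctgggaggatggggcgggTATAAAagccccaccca
Anxa4, upstream start, chr6:86793585-86793834, - strand: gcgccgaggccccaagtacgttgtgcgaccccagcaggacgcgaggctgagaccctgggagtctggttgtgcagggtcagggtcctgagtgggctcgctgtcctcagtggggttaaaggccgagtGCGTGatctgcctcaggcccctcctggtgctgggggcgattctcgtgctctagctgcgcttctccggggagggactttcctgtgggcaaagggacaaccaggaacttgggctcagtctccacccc
Anxa4, downstream start, chr6:86775115-86775364, - strand: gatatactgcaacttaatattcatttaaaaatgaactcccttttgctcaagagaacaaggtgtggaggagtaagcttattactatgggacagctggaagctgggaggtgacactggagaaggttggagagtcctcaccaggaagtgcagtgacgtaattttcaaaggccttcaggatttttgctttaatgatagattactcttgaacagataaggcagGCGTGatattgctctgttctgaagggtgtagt
In the Anxa2 window the AP-1 match TGAGTCA lay 95 to 89 bases before the start, the hypoxia core 137 to 133 bases before it and the TATA match 17 to 12 bases before it. Both Anxa4 windows held a GCGTG core and none of the other motifs. An AP-1 match is present in 6.75% of all 32851 windows of this length, an ACGTG core in 16.6%, a GCGTG core in 28.2%, a TATA match in 12.4% and the STAT element in 7.02%. The Anxa2 window was 62.4% G and C and the Anxa4 windows 64.8% and 42.0%, against a median of 52.4%. A match of letters is a description and does not show that a factor binds there.

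The remaining lower annexins differed by less than 1 log2. Anxa7, which encodes an annexin with a long N-terminal domain that binds the calcium sensors sorcin and ALG-2, read 10.30, 10.12 and 10.09 with glutamine and 9.29, 9.22 and 9.31 without it. Its groups were tight and separate, with a difference of -0.90 (SE 0.071). Anxa5 read 13.75, 13.65 and 13.50 with glutamine and 13.12, 13.02 and 12.80 without it. The gap between its groups was 0.38 and its difference -0.65 (SE 0.12). Anxa6, which encodes the large annexin with a duplicated core that recruits protein kinase C alpha and the RAS GTPase-activating protein RASA1, read 13.75, 13.78 and 13.49 with glutamine and 13.14, 13.34 and 13.13 without it. Its groups lay only 0.15 apart, and its difference was -0.47 (SE 0.11). Of these 3 genes, Anxa6 had the narrowest gap between the groups and Anxa7 the widest.

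Anxa1 stood near the array medians over all rows in both groups, and below the median gene. It read 4.22, 4.21 and 4.33 with glutamine and 4.07, 4.10 and 4.06 without it, levels within the range of the 6 array medians over all rows or below it. The medians over genes were 4.62 to 4.65 with glutamine and 4.72 to 4.77 without it, above Anxa1 on every array. Its difference was -0.18 (SE 0.039). The groups did not overlap, but the medians of the arrays themselves moved by a similar amount in the other direction.

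Ordered by size, the negative differences ran from Anxa2 through Anxa4, S100a10, Anxa7, Anxa5 and Anxa6 to Anxa1. Neighbours in that order were not always apart beyond their errors: Anxa5 and Anxa6 differed from each other by less than the sum of their standard errors, while Anxa2 and Anxa4 stood far apart. The directions of all 8 genes were the same after quantile normalization and after centring each array on its median. Quantile normalization gave Anxa2 a difference of -4.99 and Anxa3 one of 2.82, and centring gave -5.07 and 2.73. Leaving out any 1 array kept Anxa2 between -5.21 and -4.64, Anxa4 between -2.54 and -2.10, and Anxa3 between 2.70 and 3.07.

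**Figure D2:**
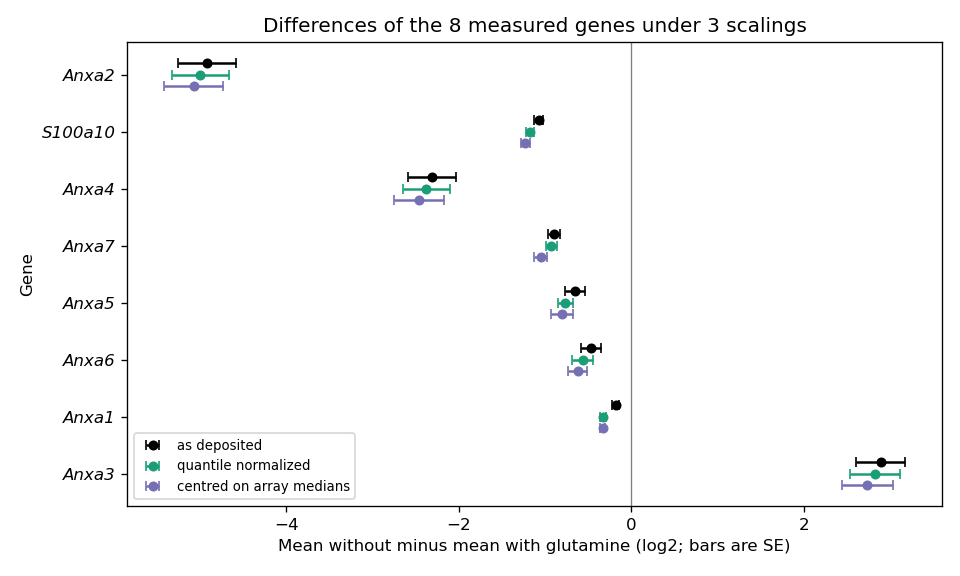
Difference between the mean without and the mean with glutamine (horizontal axis, log2; bars are standard errors, n = 3 per group) of the 8 measured genes under the deposited scale, quantile normalization and centring on array medians. Anxa3 lies to the right of 0 and the other 7 to the left under each scaling, with Anxa2 near -5 throughout.

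The replicates also varied among themselves, and some members shared an order. With glutamine, replicate 2 was the highest and replicate 3 the lowest for Anxa2, Anxa4, Anxa6 and also Anxa3, although Anxa3 differed from the other 3 in the opposite direction between the cultures. That order held for 4 of the 8 members and for 16.4% of all genes. Without glutamine Anxa3, Anxa5 and S100a10 were highest in replicate 1 and lowest in replicate 3, while Anxa1, Anxa2 and Anxa6 were highest in replicate 2. For the orders without glutamine, the share over all genes was not counted. Only 3 arrays stand behind each order, each was read from these same values, and none was tested.

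The genes whose profiles over the 6 arrays lay nearest to Anxa2 and Anxa3 were found by the root mean square difference of values centred on each gene's own mean, a measure that counts the difference between the cultures and the scatter of the replicates together. Predicted genes, small RNAs and other symbols matching set name patterns, such as any starting with Rn, were left out first. A nearer profile among those would not be listed. Nearest to Anxa2 were Tgm2, which encodes transglutaminase 2 (0.35 log2), Il23r, the IL-23 receptor gene (0.35), and Iltifb (0.35). Tgm2 shared with Anxa2 its order of replicates with glutamine, at 12.63, 13.62 and 11.77, as did Iltifb, at 11.69, 12.72 and 11.06. Il23r, at 12.40, 13.22 and 12.85, did not. The measure uses each array, so a shared order is partly built into the choice of these genes. Iltifb and Il22 are nearly the same in sequence, and the value of Iltifb is therefore uncertain. Nearest to Anxa3 were Cox6a2, a muscle-type subunit gene of cytochrome c oxidase (0.17 log2), Myof (0.22) and Avil, which encodes the actin-binding protein advillin (0.27). Cox6a2 read 4.39, 4.89 and 4.08 with and 7.39, 7.04 and 6.64 without glutamine, with the same highest and lowest replicates as Anxa3 in each group. Avil had the same highest and lowest replicates too, and Myof did not. Here also the choice of genes favours a shared order.

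**Figure D3:**
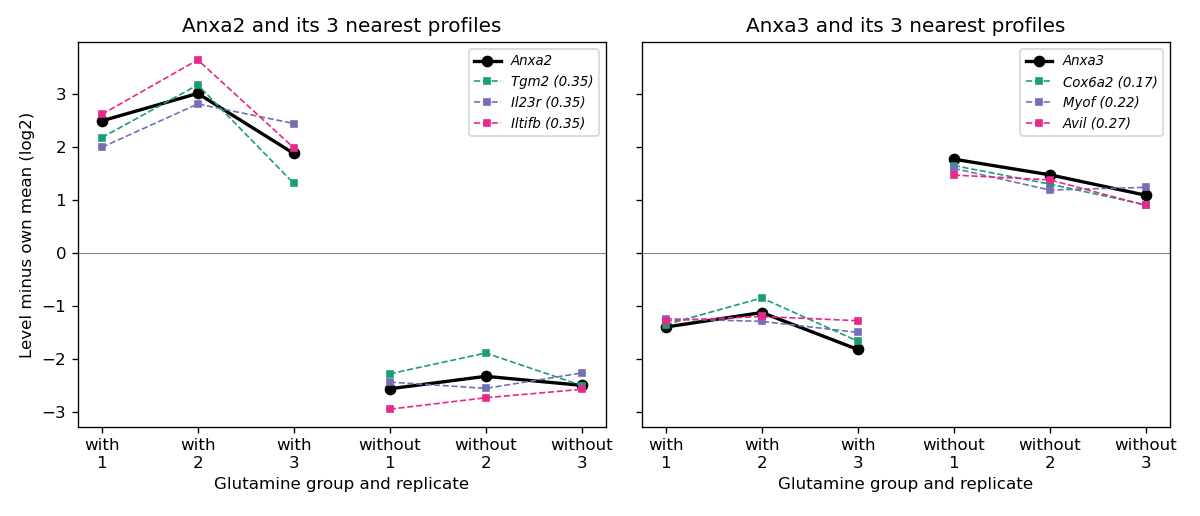
Level of Anxa2 (left) and Anxa3 (right) on each array minus the gene's own mean over the 6 arrays (vertical axis, log2), with the 3 nearest profiles as dashed lines; numbers in brackets are root mean square differences in log2. The 3 profiles beside Anxa2 are high on the arrays with glutamine and low without it, and those beside Anxa3 run the other way.

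Genes related to the annexins but outside the chosen 10 were taken from 5 lists: the other annexins, the other S100 genes, binding partners and receptors, membrane repair, and exposure and recognition of phosphatidylserine. The lists were written with earlier results of these data known, so their calls are not independent tests. Each gene was tested with limma over all 30701 genes, where 22.3% passed an adjusted p of 0.05, 9.30% higher and 13.0% lower without glutamine (2856 and 3989 genes). That split depended on scaling, with 1455 higher and 5252 lower after quantile normalization and 1216 and 6128 after centring. Of the 67 related genes measured, 4 rose, 15 fell and 48 did not pass, with a median difference of -0.0003 against 0.060 over all genes. With quantile normalization the counts were 3 and 18, and with centring 2 and 23. Ahnak, Fpr1 and Fpr2 are not analysed here.

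None of the other 4 annexins passed. Anxa9 read 6.10 ± 0.20 with and 5.93 ± 0.16 without glutamine, and Anxa8 3.76 ± 0.028 and 3.79 ± 0.11. Anxa8, Anxa10 and Anxa13 stood below the median gene. The list's median difference was 0.017.

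Among 14 other S100 genes, 2 rose, 3 fell and 9 did not pass, with a median difference of 0.0030. S100a6, whose product calcyclin binds annexin A11, fell from 7.70 ± 0.47 to 6.37 ± 0.30 (limma adjusted p = 0.0131). S100a4, known for binding myosin in motile cells, fell from 5.49 ± 0.34 to 4.36 ± 0.049 (limma adjusted p = 0.00471). For both genes the lowest array with glutamine stood above the highest without it, by 0.82 log2 for S100a6 and 0.80 for S100a4. S100a8, a subunit of calprotectin, fell from 3.67 ± 0.15 to 3.12 ± 0.23, a call lost without replicate 1 or 3 with glutamine or replicate 2 or 3 without it (limma adjusted p 0.0704 to 0.0925). The other calprotectin gene, S100a9, read 4.65 ± 0.13 and 4.49 ± 0.12 and did not pass. The 2 that rose, S100a7a (0.33) and S100a5 (0.25), stood below the median gene, and neither passed after quantile normalization, after centring or with the replicate number as a block. S100a5 lost its call when any 1 of the 6 arrays was left out (limma adjusted p 0.0659 to 0.13). S100a7a lost its call without replicate 2 or 3 with glutamine and without any 1 of the arrays lacking it (limma adjusted p 0.0831 to 0.127).

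Of 15 binding partners and receptors, 1 rose, 3 fell and 11 did not pass, with a median difference of 0.040. Prkca, which encodes protein kinase C alpha, rose from 11.98 ± 0.074 to 12.84 ± 0.095 (limma adjusted p = 0.000984). Pla2g4a, the gene of the cytosolic phospholipase A2 that annexin A1 can inhibit, fell from 5.47 ± 0.15 to 4.39 ± 0.086 (limma adjusted p = 0.000853). Egfr, the gene of a receptor kinase that phosphorylates annexin A1, fell from 7.67 ± 0.086 to 6.92 ± 0.18 (limma adjusted p = 0.00464). Pdcd6, which encodes ALG-2, fell by 0.40, a call lost when any array but replicate 1 without glutamine was left out (limma adjusted p 0.0698 to 0.123). Rasa1 and the sorcin gene Sri read 11.86 ± 0.042 and 10.15 ± 0.044 with glutamine and 12.00 ± 0.088 and 10.01 ± 0.034 without it, and did not pass.

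Of 20 membrane repair genes, 1 rose, 4 fell and 15 did not pass, with a median difference of 0.0088. Myof, which encodes myoferlin, a calcium-binding protein of membrane fusion and repair, rose from 5.39 ± 0.14 to 8.07 ± 0.22 (limma adjusted p = 0.000123). Because the list was written with earlier results of these data known, that p-value describes the rise and is not independent support for it. Its relative Dysf read 3.75 ± 0.086 and 3.76 ± 0.022, below the median gene. The calpain gene Capn2 fell by 0.94, the membrane-shaping ATPase gene Ehd2 by 0.79 and the acid sphingomyelinase gene Smpd1 by 0.57. The highest limma adjusted p of the 3 was 0.0161, that of Smpd1, whose call was lost without replicate 2 with glutamine or replicate 1 or 2 without it (0.0517 to 0.0586). The ESCRT genes of the list (Pdcd6ip, Tsg101, Chmp2a, Chmp3, Chmp4b, Chmp4c, Vps4a and Vps4b) did not pass on the deposited scale. Vps4b passed as lower after quantile normalization and after centring (limma adjusted p = 0.0425 and 0.0208), and Chmp3 after centring (0.0242). After centring, 7 of the 20 fell.

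Of 14 genes for exposing or recognising phosphatidylserine, the lipid that annexin A5 binds, 5 fell and 9 did not pass, with a median difference of -0.22. Havcr1, the gene of the phosphatidylserine receptor TIM-1, fell from 6.03 ± 0.17 to 5.38 ± 0.11 (limma adjusted p = 0.00794). Mfge8, which encodes a bridging protein between phosphatidylserine and integrins, fell by 0.51 (limma adjusted p = 0.0114). The scramblase gene Ano6 fell by 0.41, a call that ended without replicate 2 with glutamine (limma adjusted p = 0.0528). Tmem30a, the gene of the flippase subunit CDC50A, fell by 0.40, but only replicate 1 without glutamine could be left out without losing that call (limma adjusted p 0.0501 to 0.149). With quantile normalization 1 of the 14 rose and 7 fell, and centring left 9 that fell.

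**Figure D4:**
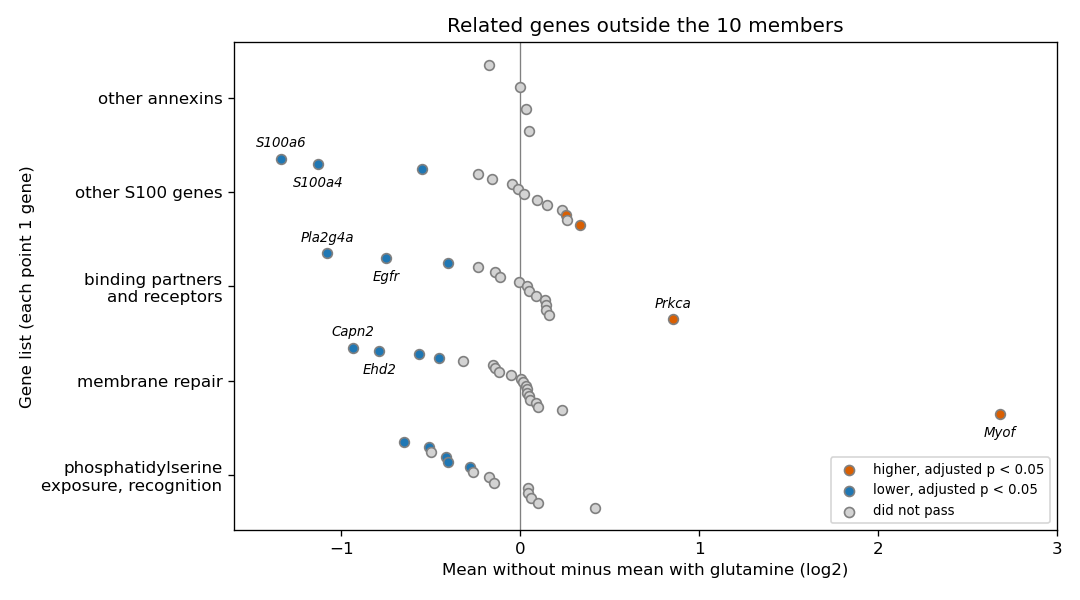
Difference between the mean without and the mean with glutamine (horizontal axis, log2) of each gene of the 5 related lists, 1 point per gene, with n = 3 arrays per group; colours mark genes that passed an adjusted p of 0.05 (limma) and names are given for those changed by over 0.7. Most points lie near 0, and Myof stands alone at 2.68.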

How the data were processed

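The authors deposited log2 expression levels per array row for 6 samples, and the submitters' processing notes name RMA and Transcriptome Analysis Console 4.0. RMA corrects background, normalizes arrays and summarises probes. Its options, the annotation and the build are not given in the sources used. Of 65956 rows, 31258 named 1 gene once old symbols were replaced from RefSeq (GRCm38.p6), 1492 named several and 33206 were unnamed here. The row of highest mean stood for each of 30701 genes, with no filter on low values. Columns were matched to samples by their labels, and 0 columns of other samples were present. The members and lists were chosen with earlier results of these data known.

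Related genes were tested two-sided by lmFit and eBayes of limma 3.58.1 in R 4.3.3, with no covariate and Benjamini-Hochberg adjustment over all genes at 0.05. Of each list, up to 4 passing genes with the largest changes are named, or the 2 of highest mean where fewer than 2 passed; others named were chosen after their values were seen. On simulated data with 30701 genes and 50 changed at each size, this comparison recovered 30% of changes of 0.5 log2, 92% of 1 and 100% of 2 and of 3, with 6 false calls. The changed share there was far below the 22.3% of genes that passed in the real data. These rates therefore need not hold for the real comparison. Same-numbered samples were checked for pairing: their deviations correlated at 0.066, -0.23 and 0.28. Differently numbered samples correlated at -0.33 to 0.30. Deviations from means of 3 arrays cannot decide whether the numbers pair the cultures, so pairing remains unknown. Alternatives were quantile normalization, centring on array medians, genes above the median level, the mean over rows, every row, trend and robust moderation, a replicate block and leaving out each array. Precision is limited by the number of arrays. Figures used matplotlib 3.10.9 in Python 3.11.15.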

Additional observations from a re-analysis of the deposited data

How the results depend on the processing

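Over 12 alternatives, none of 95 values for the 8 measured members changed sign, and 88 moved by less than the replicate SD. Restricting to genes above the median level, the mean over rows, every row and the replicate block could not move a member's difference. Their values for the members were therefore fixed in advance, and the members were themselves picked on this contrast. Quantile normalization moved Anxa1 to -0.33 and S100a10 to -1.17. Centring moved Anxa1 to -0.33, Anxa5 to -0.81, Anxa6 to -0.62, Anxa7 to -1.05 and S100a10 to -1.23. Quantile normalization gave 1455 genes higher, and centring 1216 higher and 6128 lower, with 2 related genes higher and 23 lower. With the replicate block, 2 related genes were higher and 13 lower, against 2549 and 3744 of all genes. Leaving out each array gave 1395 to 2490 genes higher and 2666 to 4012 lower, and 2 to 3 related genes higher and 10 to 14 lower. Anxa8, not called, changed sign after quantile normalization (-0.082), after centring (-0.12) and when arrays were left out singly (-0.026 to 0.069). Cd3e, not called as deposited, was -0.42 after quantile normalization, -0.15 after centring and -0.027 to 0.047 when arrays were left out singly. Of 360 values for 28 other named genes, 305 kept direction and call, 43 lost the call, 4 gained one and 8, those of Anxa8 and Cd3e, changed sign. The causes of these shifts were not tested. Leaving out arrays lowers the number of samples behind each call. The signal of Anxa1, S100a5, S100a7a and S100a8 near or below the array medians limits what their rows can show. Without glutamine, S100a4 (4.36), Pla2g4a (4.39) and Lyz2 (4.14) also stood near or below those medians. That limits how well the size of their falls can be read.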

Other observations

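The chromosome neighbours of the members were looked up after the members' values were seen, as the protein-coding genes just before and after each in the order of the RefSeq table. Of 15 measured neighbours of the 8 genes, 1 fell, none rose and 14 did not pass, where 22.3% of all genes passed. The neighbours of Anxa2 read 8.24 ± 0.11 with and 8.37 ± 0.076 without glutamine for Ice2, a transcription elongation gene, and 3.56 ± 0.17 and 3.57 ± 0.16 for Foxb1. Those of Anxa3 were Fras1, at 3.33 ± 0.028 and 3.40 ± 0.0096, and the kinase gene Bmp2k, at 12.71 ± 0.075 and 12.53 ± 0.090. The gene that fell was Gmcl1, beside Anxa4, from 10.65 ± 0.079 to 9.81 ± 0.19 (limma adjusted p = 0.00314, and 0.00163 to 0.0184 over its alternatives).

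Of the markers of other cell types, Cd8b1 fell from 8.10 ± 0.25 to 7.39 ± 0.092 (limma adjusted p = 0.0117), while Cd8a read 3.83 ± 0.083 and 3.78 ± 0.055. Of the 8 stromal, epithelial and endothelial markers, 1 rose, Epcam, by 0.57 (limma adjusted p = 0.00288), and 7 did not pass. The part of these cells in the member values was not tested.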
